A study of Mus musculus with 4 samples.

Results

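The Sall genes encode zinc finger transcription factors named after the fly gene spalt, and the mouse genome carries 4 of them, Sall1, Sall2, Sall3 and Sall4. Their RNA was measured in mouse embryos, in the first pharyngeal arch, the outgrowth that forms both jaws and the molar teeth. All 4 symbols were found among the 52459 genes listed, and all 4 passed the minimum mean of 10 normalized reads that 16746 genes passed. The family was chosen by the low value of Sall3 in the transgenic libraries, so the difference between genotypes is given for its members as a description, with no test.

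Embryos of 25 to 27 somites (E9.5 to E9.75) were used, and each genotype gave 2 libraries. Wnt1-Cre;pMes-Bmp4 embryos carry Wnt1-Cre, which is active in the neural crest lineage, and pMes-Bmp4, a transgene from which Cre releases Bmp4. They were set against wild-type embryos, and no library analysed here carried either transgene alone, so effects of Wnt1-Cre by itself cannot be told apart from those of Bmp4. The study's title concerns molar patterning in mice with syngnathia, in which the jaws are fused. The labels do not say whether the libraries are separate embryos, litters or pools, so all p-values measure the spread between these libraries, which may be technical. Libraries held 31404494 and 29607541 reads assigned to genes in Wnt1-Cre;pMes-Bmp4 and 47849092 and 33763574 in wild-type. Bmp4 itself was at 2656 and 1745 normalized reads in Wnt1-Cre;pMes-Bmp4 against 681.7 and 437.1 in wild-type. All 9 markers fixed for crest mesenchyme were detected, with means over the 4 libraries of 411 to 10300 normalized reads. At a limma adjusted p under 0.05 Prrx2 and Msx1 were higher in Wnt1-Cre;pMes-Bmp4, by 1 and 1.16 on the log2 scale. Tfap2a was lower, at -1.06, and the other 6 did not pass. Over all genes tested 2.97% passed as higher and 5.28% as lower. Of the 9 markers 7 had a negative log2 fold change, and the median was -0.36.

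Sall proteins act mostly as repressors. A short stretch at their start recruits the NuRD complex, which removes acetyl groups from histones and remodels nucleosomes, and pairs of zinc fingers along the protein bind DNA. In the fly wing, spalt is one of the classic genes switched on by Dpp, the counterpart of Bmp2 and Bmp4. In the mouse, loss of Sall3 is lethal around birth, with defects of the palate and of cranial nerves. Sall1 is needed for the kidney and Sall4 for the early embryo and for pluripotent stem cells, and in humans changes in SALL1 and SALL4 cause Townes-Brocks and Okihiro syndromes, which affect ears, limbs and other organs.

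The sequences around the start sites of Sall1 and Sall2 are shown because Smad factors, which carry the BMP signal, are known to bind short motifs that can be looked for there. The windows are promoters in the RefSeq table, from 250 bases before to 50 after a start on GRCm38.p6. Sall3 was left out of this search, and no window was found for Sall4. Capitals mark GGCGCC, a GC-rich Smad site, and CAGAC, the Smad binding element, each searched on both strands. The 2 motifs did not overlap in any sequence shown. All 4 sequences lie on the minus strand, with Sall1 at chr8:89044113-89044412, chr8:89043463-89043762 and chr8:89042813-89043112 and Sall2 at chr14:52316274-52316573.
Sall1 start at 89044162: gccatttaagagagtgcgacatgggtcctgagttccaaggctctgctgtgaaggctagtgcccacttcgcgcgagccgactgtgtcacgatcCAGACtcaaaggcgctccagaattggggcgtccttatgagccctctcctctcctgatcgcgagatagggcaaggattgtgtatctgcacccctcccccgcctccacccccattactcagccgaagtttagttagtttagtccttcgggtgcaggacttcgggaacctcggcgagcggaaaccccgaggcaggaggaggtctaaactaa
Sall1 start at 89043512: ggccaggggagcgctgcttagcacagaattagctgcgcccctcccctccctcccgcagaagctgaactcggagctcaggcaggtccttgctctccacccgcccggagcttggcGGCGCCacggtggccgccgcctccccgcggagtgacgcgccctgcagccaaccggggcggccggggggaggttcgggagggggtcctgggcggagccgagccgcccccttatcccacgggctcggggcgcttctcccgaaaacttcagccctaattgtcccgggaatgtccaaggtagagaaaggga
Sall1 start at 89042862: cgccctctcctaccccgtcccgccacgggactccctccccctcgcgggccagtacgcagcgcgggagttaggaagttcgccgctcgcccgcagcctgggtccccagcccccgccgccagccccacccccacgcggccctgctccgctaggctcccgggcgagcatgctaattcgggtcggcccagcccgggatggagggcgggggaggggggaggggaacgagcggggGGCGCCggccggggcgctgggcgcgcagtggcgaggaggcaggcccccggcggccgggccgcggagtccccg
Sall2 start at 52316323: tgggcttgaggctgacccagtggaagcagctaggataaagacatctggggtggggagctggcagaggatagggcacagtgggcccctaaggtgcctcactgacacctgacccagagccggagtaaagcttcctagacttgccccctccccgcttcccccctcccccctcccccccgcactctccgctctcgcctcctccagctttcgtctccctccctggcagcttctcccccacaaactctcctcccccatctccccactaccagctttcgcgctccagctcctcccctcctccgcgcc

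The most upstream Sall1 start held 1 CAGAC and no GGCGCC, and both downstream Sall1 starts, which are not transcript starts in GENCODE, held 1 GGCGCC and no CAGAC. The Sall2 start held neither motif, which says only that these letters are not in this window. Among 32851 promoters of the same length in the table, 11.9% held GGCGCC and 49.6% held CAGAC. G and C made up 57.3%, 70% and 79.7% of the Sall1 windows in the order shown and 65% of the Sall2 window, against a median of 52.7% over all windows. A second Sall2 start, further upstream and likewise not a start in GENCODE, lay in a window with 30.3% G and C and also held neither motif. Which start was in use cannot be read from counts per gene.

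Sall3 had the lowest level in the family in every library and the largest difference between genotypes on the log2 scale. It was at 34.13 and 52.14 normalized reads in Wnt1-Cre;pMes-Bmp4 and at 205.5 and 269.5 in wild-type. Both transgenic libraries were low and both wild-type libraries high, and 153 normalized reads separated the nearest pair. These values rest on 32 and 43 reads in Wnt1-Cre;pMes-Bmp4 and on 277 and 262 in wild-type. Exact Poisson intervals of 95%, which cover counting error only, ran from 23.3 to 48.2 and from 37.7 to 70.2 normalized reads in Wnt1-Cre;pMes-Bmp4, and from 182 to 231 and from 238 to 304 in wild-type. The mean was 43.13 ± 12.7 in Wnt1-Cre;pMes-Bmp4 and 237.5 ± 45.3 in wild-type (SD, n = 2 each). The log2 fold change was -2.45 ± 0.33 (SE), 5.47-fold lower in Wnt1-Cre;pMes-Bmp4, which placed Sall3 at rank 66 from the lowest of 16746 genes. Fold changes are differences of log2(value + 1), Wnt1-Cre;pMes-Bmp4 minus wild-type, a scale that understates the change of low genes. Whether fewer cells carried Sall3 or each cell held less of it cannot be told apart in RNA of whole arches.

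Sall2, a less studied member linked to eye development in humans, was at 370.1 and 502 normalized reads in Wnt1-Cre;pMes-Bmp4 and at 845.6 and 894.8 in wild-type. The groups did not overlap, and the wild-type pair was the closest pair of the family, 0.08 apart on the log2 scale. The log2 fold change was -1.01 ± 0.19 (SE), 2.02-fold lower in Wnt1-Cre;pMes-Bmp4.

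Sall4, the stem cell member, was at 1083 and 868.1 normalized reads in Wnt1-Cre;pMes-Bmp4 and at 1443 and 1863 in wild-type. The groups did not overlap, with 361 normalized reads between the nearest libraries. The log2 fold change was -0.76 ± 0.19 (SE), 1.69-fold lower in Wnt1-Cre;pMes-Bmp4. A transcript on the opposite strand, Gm14261, overlaps the Sall4 gene by 1801 bases and was listed at 1.067 and 1.212 normalized reads in Wnt1-Cre;pMes-Bmp4 and at 5.934 and 4.114 in wild-type. No source used here states that counting used the strand, so reads in the overlap cannot be assigned with certainty.

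Sall1 was at 293.3 and 357.7 normalized reads in Wnt1-Cre;pMes-Bmp4 and at 538.5 and 367.2 in wild-type. The higher transgenic library lay only 9.51 normalized reads below the lower wild-type library, and their Poisson intervals of 318 to 401 and 330 to 407 overlapped. The log2 fold change was -0.46 ± 0.24 (SE), while the wild-type libraries themselves were 0.55 apart on the log2 scale. Without wild-type replicate 1 the log2 fold change of Sall1 was -0.18 and without wild-type replicate 2 it was -0.73.

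**Figure D1:**
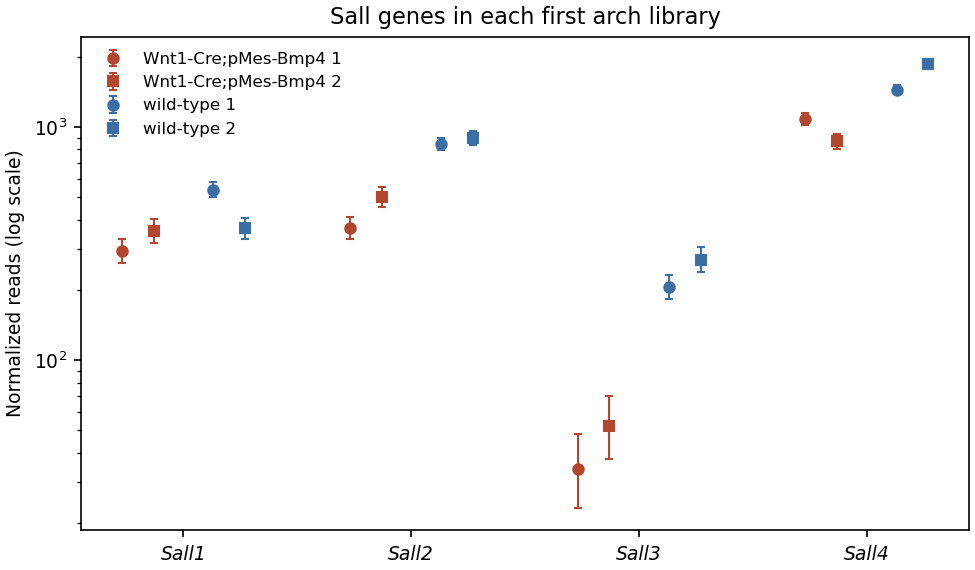
Normalized reads of the 4 Sall genes (log scale) in each Wnt1-Cre;pMes-Bmp4 library (red) and each wild-type library (blue), with circles for replicate 1 and squares for replicate 2; bars are exact Poisson intervals of 95%. Sall3 was at 34.13 and 52.14 in Wnt1-Cre;pMes-Bmp4 and at 205.5 and 269.5 in wild-type, while the Sall1 values 357.7 and 367.2 of the 2 genotypes nearly touch.

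In all 4 members both transgenic libraries were below both wild-type libraries, a pattern that 29.7% of all genes tested showed, and nothing is read from that count because the choice of the family used the same contrast. The members did not vary in step between libraries of 1 genotype. Replicate 2 minus replicate 1 within Wnt1-Cre;pMes-Bmp4 was 0.60 for Sall3, 0.44 for Sall2, 0.29 for Sall1 and -0.32 for Sall4 on the log2 scale. Within wild-type it was 0.39 for Sall3, 0.37 for Sall4, 0.08 for Sall2 and -0.55 for Sall1.

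Divided by transcript length, the order of the levels was the same in all 4 libraries, Sall4 first, then Sall2, Sall1 and Sall3. Sall4 was at 213 and 171 normalized reads per kb in Wnt1-Cre;pMes-Bmp4 and at 285 and 367 in wild-type. Sall2 followed with 71.9 and 97.5 per kb in Wnt1-Cre;pMes-Bmp4 and 164 and 174 in wild-type. Sall1 was at 55.7 and 67.9 per kb in Wnt1-Cre;pMes-Bmp4 and at 102 and 69.7 in wild-type. Sall3 came last, at 4.82 and 7.36 per kb in Wnt1-Cre;pMes-Bmp4 and at 29 and 38.1 in wild-type. No 2 neighbours in this order overlapped within a genotype, and the narrowest gap was that between Sall2 and Sall1 in Wnt1-Cre;pMes-Bmp4. Lengths were those of the longest annotated transcript, 5073 bases for Sall4, 5147 for Sall2, 5265 for Sall1 and 7079 for Sall3.

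The summed family and the part of Sall3 in it are given as a description, since both use the contrast that picked the family. The 4 members summed to 1780 normalized reads in each Wnt1-Cre;pMes-Bmp4 library, against 3033 and 3394 in wild-type, a log2 ratio of -0.85. Sall3 made up 1.92% and 2.93% of the family's reads in Wnt1-Cre;pMes-Bmp4, against 6.77% and 7.94% in wild-type. The Wilson 95% intervals of these shares, which cover counting error only, were 1.36% to 2.69% and 2.18% to 3.92% in Wnt1-Cre;pMes-Bmp4, and 6.04% to 7.59% and 7.07% to 8.91% in wild-type. The shares of the other members overlapped between genotypes. Sall4 made up 60.8% and 48.8% in Wnt1-Cre;pMes-Bmp4 and 47.6% and 54.9% in wild-type. For Sall2 the shares were 20.8% and 28.2% in Wnt1-Cre;pMes-Bmp4 and 27.9% and 26.4% in wild-type, and for Sall1 16.5% and 20.1% in Wnt1-Cre;pMes-Bmp4 and 17.8% and 10.8% in wild-type.

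**Figure D2:**
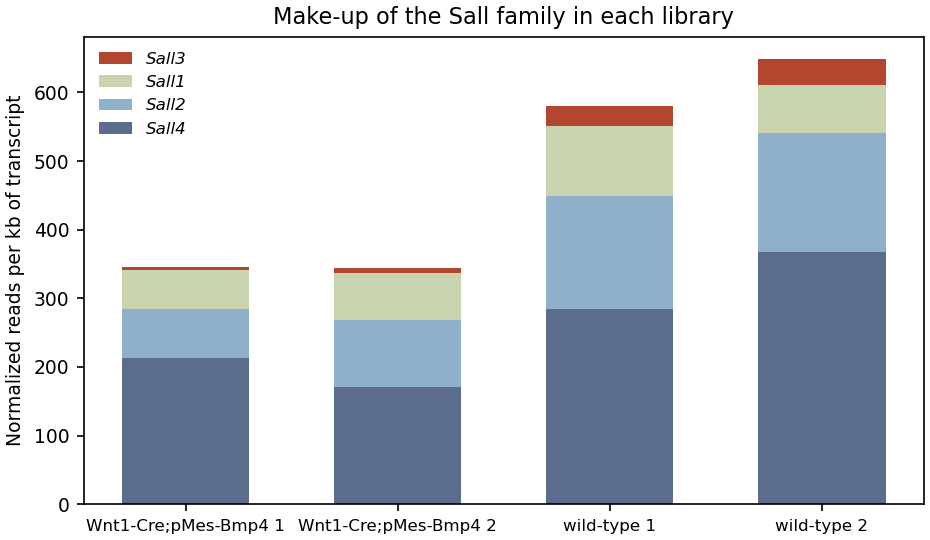
Stacked normalized reads per kb of transcript of Sall4, Sall2, Sall1 and Sall3 in each library, Wnt1-Cre;pMes-Bmp4 on the left and wild-type on the right. The stacks reach 345.8 and 343.9 in Wnt1-Cre;pMes-Bmp4 and 580.1 and 648.8 in wild-type, and the Sall3 layer at the top is thin in both transgenic libraries.

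All 4 Sall transcripts are long, and long transcripts as a class were lower in Wnt1-Cre;pMes-Bmp4. The 993 genes of 5000 to 6000 bases that averaged 50 or more normalized reads had a median log2 fold change of -0.22, with quartiles of -0.57 and 0.09. For the 1040 genes of 6000 to 8000 bases it was -0.45, with quartiles of -0.79 and -0.11. Sall1 lay between the quartiles of its bin, Sall2 and Sall4 lay below theirs, and Sall3 lay furthest below. After a length correction, a curve of each library's deviation on transcript length that was subtracted, the log2 fold changes were -2.02 ± 0.32 for Sall3, -0.79 ± 0.20 for Sall2, -0.54 ± 0.17 for Sall4 and -0.21 ± 0.26 for Sall1 (SE). For Sall3 the corrected value of -2.02 stands beside -2.45 uncorrected.

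**Figure D3:**
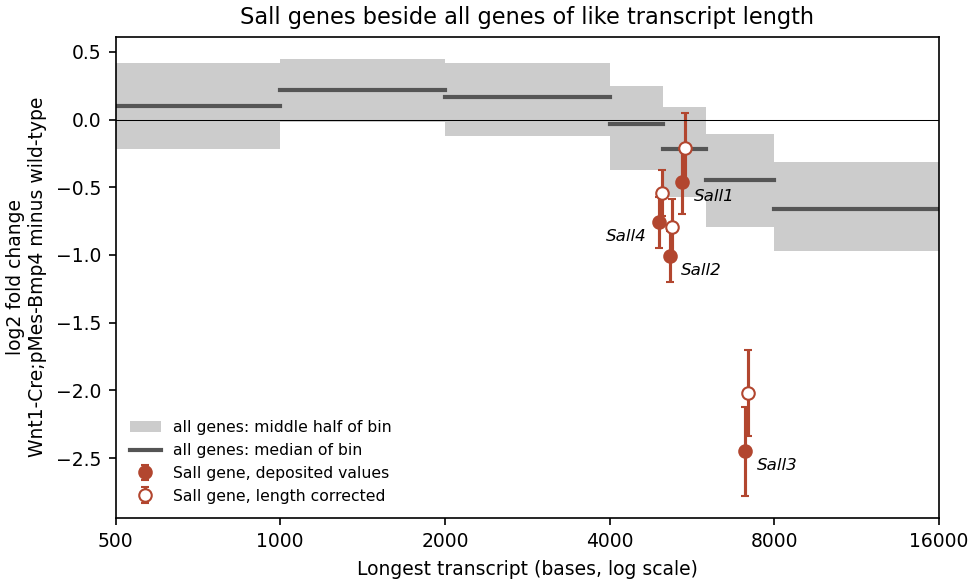
Log2 fold change, Wnt1-Cre;pMes-Bmp4 minus wild-type, against the longest transcript in bases (log scale; the last bin goes on beyond the axis). Grey boxes and lines are the quartiles and the median of each length bin over genes that averaged 50 or more normalized reads, filled points the Sall genes and open points their length-corrected values, with SE; Sall4 and Sall1 are set apart slightly along the axis. Sall3 at -2.45, and at -2.02 corrected, lies below the box of its bin.

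The genes whose pattern over the 4 libraries came closest to each member were found by the root mean square difference of centred log2 values, over protein-coding genes. They were picked on these values and are a description over 4 libraries. Nearest to Sall3 were Cacna1h, a calcium channel subunit, at a difference of 0.165, and Flnc, a filamin that crosslinks actin, at 0.17, followed by Mctp1, Lrrc8a and Foxj1. Flnc was at 29.86 and 36.37 normalized reads in Wnt1-Cre;pMes-Bmp4 and at 149.8 and 249.9 in wild-type. Lrrc8a, a subunit of the volume-regulated anion channel, was at 59.72 and 65.47 in Wnt1-Cre;pMes-Bmp4 and at 263.3 and 356.9 in wild-type.

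The other members sat in denser company, with closer matches. Nearest to Sall2 were Csk, a kinase that restrains Src, and Tnpo1, a nuclear import receptor, with differences of 0.013 and 0.017, then Kif2a, Epg5 and Arhgap21. Nearest to Sall4 were Tcf7l2, a transcription factor of the WNT pathway, at 0.013, then Sbf1, Abl1, Rap2b and Bcl9. Nearest to Sall1 were Mdga1, Ralgps1, Ddhd1, Shox2 and Cdh19, at 0.05 to 0.058. Between members the differences were larger, from 0.313 for Sall2 and Sall4 to 1.06 for Sall1 and Sall3. The low counts of Sall3 and of its nearest genes add counting noise to their patterns.

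The genes next to the Sall loci were read as a comparison chosen by position alone, taking protein-coding genes within 1000 kb. Sall3 lies on chromosome 18 at 80966376 to 80986771 and Sall4 on chromosome 2 at 168748332 to 168767943 of GRCm38, both on the minus strand. The surroundings of these members hold members of the same gene families, with Atp9b, Nfatc1, Kcng2, Adnp2 and Pard6g near Sall3 and Atp9a, Nfatc2, Kcng1, Adnp and Pard6b near Sall4. None of the 10 neighbours of Sall3 tested passed in limma at an adjusted p under 0.05, in either direction, where 2.97% of all genes tested were higher and 5.28% lower. At an unadjusted p under 0.05 in limma the counts were 1 higher and 2 lower, beside 2246 and 2570 of all 16746 genes tested. None passed in edgeR, and DESeq2 called 1 higher and 1 lower, beside 7.67% higher and 9.45% lower of all genes. The median log2 fold change of these 10 neighbours was -0.15, against 0.02 for all genes tested.

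The gene closest to Sall3, Atp9b, a phospholipid flippase at 32.3 kb, was at 475.7 and 478.9 normalized reads in Wnt1-Cre;pMes-Bmp4 and at 497.7 and 577 in wild-type. Its log2 fold change was -0.17 ± 0.17 (SE), at an adjusted p of 0.556 in limma. Nfatc1, a calcium-regulated transcription factor at 253 kb, was at 154.6 and 100.6 in Wnt1-Cre;pMes-Bmp4 and at 202.5 and 311.6 in wild-type, and its log2 fold change of -1 ± 0.32 (SE) had a limma adjusted p of 0.0916. Adnp2 gave -0.46 and Gm16286 gave 0.43, at adjusted p values in limma of 0.127 and 0.0754. The remaining 6 neighbours tested, Ctdp1, Pqlc1, Hsbp1l1, Txnl4a, Rbfa and Pard6g, lay between -0.26 and 0.29 and did not pass.

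Around Sall4 none of 10 neighbours tested passed in limma, where 2.97% of all genes tested were higher and 5.28% lower. At an unadjusted limma p under 0.05 there were 0 in either direction, and edgeR and DESeq2 called 0. The median log2 fold change was -0.23. Atp9a, 5.92 kb away, was at 134.4 and 93.36 normalized reads in Wnt1-Cre;pMes-Bmp4 and at 124.6 and 135.8 in wild-type, so its groups overlapped. Nfatc2 and Kcng1, at -1.07 ± 0.58 and -0.89 ± 0.48 (SE), had the lowest values among these neighbours, at a mean of under 50 normalized reads, and did not pass, at adjusted p values of 0.266 and 0.268 in limma. The remaining 7, Zfp64, Mocs3, Dpm1, Adnp, Pard6b, Ptpn1 and Tshz2, lay between -0.38 and 0.30.

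Of 7 neighbours of Sall1 tested 0 passed in limma, where 2.97% of all genes tested were higher and 5.28% lower. At an unadjusted limma p under 0.05 there was 1, Heatr3 at 0.38, and edgeR and DESeq2 called 0. The median log2 fold change was -0.04. Cyld, a deubiquitinase, was the closest at 275 kb, with 0.37 ± 0.20 (SE) at an adjusted p of 0.261 in limma. The others, Snx20, Nkd1, Brd7, Adcy7 and Cnep1r1, lay between -0.27 and -0.03.

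Sall2 sits in a gene-dense stretch of chromosome 14, at 52311172 to 52328762, where 1 of 12 neighbours tested was lower and 0 were higher, with a median log2 fold change of 0.08. That is 8.33% lower, beside 5.28% lower over all genes tested. The counts were 1 higher and 2 lower at an unadjusted limma p under 0.05, 1 lower in edgeR and 2 lower in DESeq2. Over all 16746 genes tested 2246 were higher and 2570 lower at that p, and edgeR called 5.46% lower and DESeq2 9.45%. The one that fell was Chd8, a chromatin remodeller at 53.4 kb, at 511.9 and 476.5 normalized reads in Wnt1-Cre;pMes-Bmp4 and at 841.9 and 931.8 in wild-type. Its log2 fold change was -0.84 ± 0.16 (SE), at an adjusted p of 0.0312 in limma, and -0.31 after the length correction, with a limma adjusted p of 0.26. The 2 genes closest to Sall2, the RNA methyltransferase Mettl3 at 6.04 kb and Tox4 at 14.8 kb, had log2 fold changes of 0.56 and 0.23, neither of which passed, at adjusted p values of 0.101 and 0.286 in limma. The remaining 9, Rab2b, Supt16, Rpgrip1, Hnrnpc, Zfp219, Arhgef40, Ndrg2, Mettl17 and Gm5622, lay between -0.78 and 0.64 and did not pass.

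Over the neighbours of all 4 members, 0 of 39 tested were higher and 1 (2.56%) was lower, beside 2.97% and 5.28% of all genes tested. Without wild-type replicate 1 or without wild-type replicate 2 no neighbour passed in limma (0 of 39), in fits that called 0 and 1 of all 16746 genes, so the loss says nothing about the neighbours. By contrast 4 higher and 5 lower passed with the library Wnt1-Cre;pMes-Bmp4 replicate 1 left out, and 2 lower with its replicate 2 left out. The shares over all genes in those fits were 16% higher and 16.2% lower, and 7.17% higher and 11.4% lower.

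**Figure D4:**
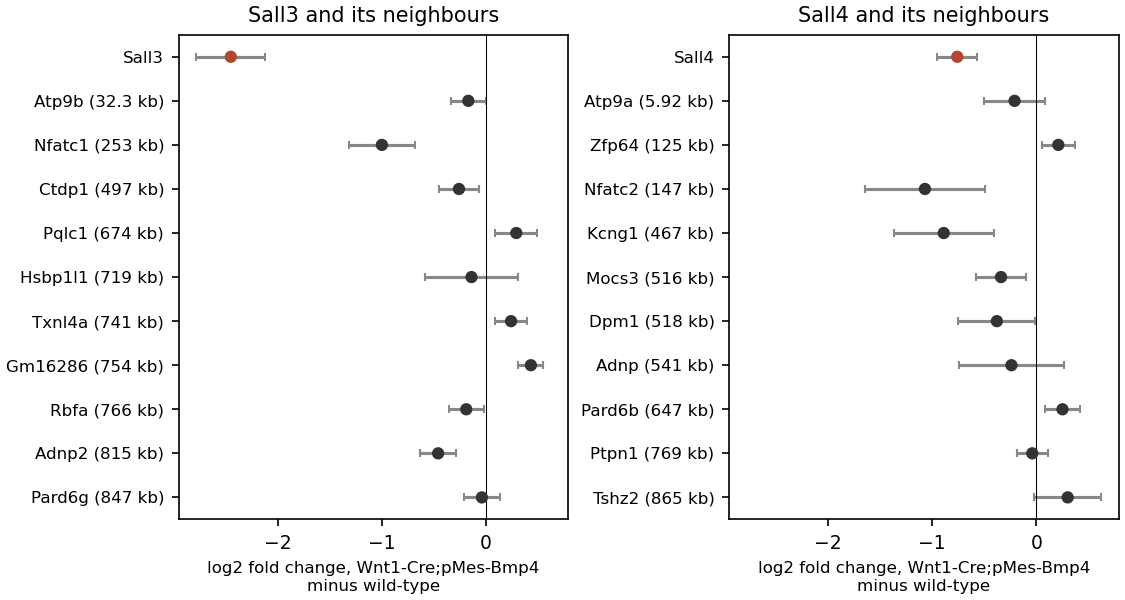
Log2 fold change with SE, Wnt1-Cre;pMes-Bmp4 minus wild-type, of Sall3 (left) and Sall4 (right) in red and of their tested protein-coding neighbours in black, ordered by distance in kb. Atp9b, the gene closest to Sall3, is at -0.17 beside -2.45 for Sall3.

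Of the NuRD complex, the corepressor that Sall proteins recruit, 14 subunit genes were tested. Among them were 2 that rose and 2 that fell, with 10 short of the threshold, which is 14.3% in each direction beside 2.97% higher and 5.28% lower over all genes tested. The median log2 fold change of the subunits was -0.09, against 0.02 for all genes. Rbbp7, a histone chaperone subunit, was at 24980 and 29820 normalized reads in Wnt1-Cre;pMes-Bmp4 and at 15030 and 12600 in wild-type, a log2 fold change of 0.99 ± 0.15 (SE), at an adjusted p of 0.0233 in limma. Hdac1, the deacetylase, was at 9136 and 10280 in Wnt1-Cre;pMes-Bmp4 and at 6811 and 5770 in wild-type, a log2 fold change of 0.63 ± 0.14 (SE) at an adjusted p of 0.0408 in limma.

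The subunits that fell were Chd4, the ATP-driven remodeller of the complex, and Gatad2b, a scaffold subunit. Chd4 was at 3333 and 2204 normalized reads in Wnt1-Cre;pMes-Bmp4 and at 5362 and 6545 in wild-type, a log2 fold change of -1.13 ± 0.21 (SE) at an adjusted p of 0.0301 in limma. Gatad2b was at 580.2 and 647.5 in Wnt1-Cre;pMes-Bmp4 and at 1283 and 1490 in wild-type, a log2 fold change of -1.17 ± 0.16 (SE) at an adjusted p of 0.0211 in limma. After the length correction none of the 4 passed, with log2 fold changes of 0.78, 0.42, -0.73 and -0.71 for Rbbp7, Hdac1, Chd4 and Gatad2b at adjusted p values in limma of 0.0534, 0.132, 0.0823 and 0.0622. Mta1, a scaffold subunit, was next, at -0.94 ± 0.23 (SE) and an adjusted p of 0.0505 in limma, and at -1.1 and 0.0546 after the length correction.

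With wild-type replicate 1 or 2 left out 0 subunits passed in limma, in fits that called 0 and 1 of all genes. The log2 fold changes were then -1.27 and -0.98 for Chd4, -1.28 and -1.06 for Gatad2b, 1.12 and 0.86 for Rbbp7 and 0.75 and 0.51 for Hdac1. With Wnt1-Cre;pMes-Bmp4 replicate 1 left out, 4 subunits were higher and 5 lower, where 16% of all genes were higher and 16.2% lower.

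**Figure D5:**
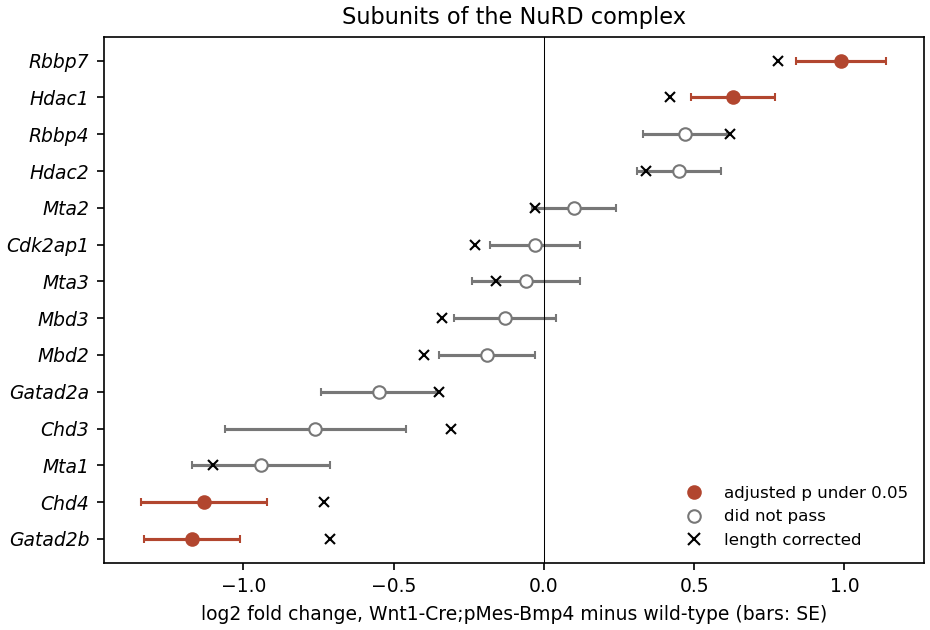
Log2 fold change with SE, Wnt1-Cre;pMes-Bmp4 minus wild-type, of the 14 tested NuRD subunit genes, filled where the limma adjusted p was under 0.05; crosses are the length-corrected values. Rbbp7 at 0.99 and Hdac1 at 0.63 lie to the right, Chd4 at -1.13 and Gatad2b at -1.17 to the left.

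Of the network that Sall4 shares with pluripotency factors, 10 of 19 genes reached the minimum level, and the core factors Pou5f1 and Nanog did not. Of the 10, 2 (20%) fell and 0 rose, with 8 short of the threshold and a median log2 fold change of -0.56. Over all genes tested 2.97% were higher and 5.28% lower, with a median of 0.02. The 2 that fell were Lin28b and Lin28a, RNA-binding proteins that block maturation of let-7 microRNAs. Lin28b was at 1892 and 2133 normalized reads in Wnt1-Cre;pMes-Bmp4 and at 3460 and 3886 in wild-type, a log2 fold change of -0.87 ± 0.14 (SE) at an adjusted p of 0.0233 in limma. Lin28a was at 853.2 and 771.1 in Wnt1-Cre;pMes-Bmp4 and at 1389 and 1309 in wild-type, a log2 fold change of -0.73 ± 0.15 (SE) at an adjusted p of 0.0343 in limma.

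Lin28a also passed after the length correction, at -0.80 and an adjusted p of 0.0479 in limma, and Lin28b did not, at -0.61 and 0.0699. With the replicate number as a block Lin28a did not pass, at an adjusted p of 0.0736 in limma. Without wild-type replicate 1 or 2 the log2 fold change of Lin28a was -0.69 or -0.77, and that of Lin28b -0.95 or -0.78. These fits leave 1 library in a group, so no call is read from them here. At an unadjusted limma p under 0.05 the list had 1 gene higher and 3 lower, beside 2246 and 2570 of all 16746 genes tested. Both edgeR and DESeq2 called 0 higher and 2 lower, beside 5.46% and 9.45% of all genes lower. Sox2, another partner of Sall4 in stem cells, was at -0.63 ± 0.23 (SE) and did not pass, at an adjusted p of 0.123 in limma.

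Other zinc finger regulators of the same C2H2 type gave a comparison by protein class. Of the 26 genes that could be tested 3 (11.5%) fell and 0 rose, with 23 short of the threshold and a median log2 fold change of -0.35, beside 5.28% lower, 2.97% higher and a median of 0.02 over all genes tested. Zfhx4, a giant zinc finger and homeodomain protein, was at 714.6 and 574.7 normalized reads in Wnt1-Cre;pMes-Bmp4 and at 1559 and 1805 in wild-type, a log2 fold change of -1.39 ± 0.17 (SE) at an adjusted p of 0.0195 in limma. Gli3, which carries hedgehog signals, and Zfhx3 had log2 fold changes of -1 and -1.04, at adjusted p values in limma of 0.0233 and 0.0406. None of the 3 passed after the length correction, with log2 fold changes of -0.66, -0.49 and -0.27 at adjusted p values in limma of 0.0644, 0.094 and 0.457 for Zfhx4, Gli3 and Zfhx3. Of this list 3 genes were higher and 9 lower at an unadjusted limma p under 0.05, beside 2246 and 2570 of all 16746 tested. No gene was higher in edgeR or DESeq2, which called 3 and 7 lower, beside 5.46% and 9.45% of all genes. Without wild-type replicate 1 or 2 the log2 fold change of Zfhx4 was -1.49 or -1.28. Gli3 then gave -1.1 or -0.9 and Zfhx3 -1.16 or -0.93. Such a fit leaves 1 library in a group, so no call is read from it here.

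Counterparts of the fly Dpp pathway, through which spalt is switched on in the wing, were read as a last list. Of the 17 genes that could be tested 3 (17.6%) fell and 0 rose, with 14 short of the threshold and a median log2 fold change of -0.52. The shares over all genes tested were 5.28% lower and 2.97% higher, with a median of 0.02. Bmpr2, a receptor of BMPs, was at 245.3 and 312.8 normalized reads in Wnt1-Cre;pMes-Bmp4 and at 815.9 and 942.1 in wild-type, a log2 fold change of -1.66 ± 0.20 (SE) at an adjusted p of 0.0194 in limma. Smad5, a BMP signal transducer, had a log2 fold change of -0.98 ± 0.14 (SE) at an adjusted p of 0.0218 in limma. Hivep1, a counterpart of the fly Dpp partner Schnurri, had -1.21 ± 0.20 (SE) at an adjusted p of 0.025 in limma.

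Tbx2 and Tbx3, counterparts of the fly gene omb, which Dpp also switches on in the wing, had log2 fold changes of -0.28 and -0.52, with overlapping groups and without passing, at adjusted p values of 0.655 and 0.233 in limma. None of the 3 Dpp counterparts that fell passed after the length correction, where Bmpr2 was at -0.96, Smad5 at -0.59 and Hivep1 at -0.67 (adjusted p in limma 0.0577, 0.0648 and 0.102). Without wild-type replicate 1 or 2 the log2 fold change of Bmpr2 was -1.76 or -1.56. Smad5 then gave -1.09 or -0.88 and Hivep1 -1.18 or -1.24. Since 1 library stands for a group in such fits, no call is read from them here. DESeq2 called 6 of the list lower and edgeR 3, beside 9.45% and 5.46% of all genes tested, and both called 0 higher. At an unadjusted limma p under 0.05 the list had 1 gene higher and 7 lower, beside 2246 and 2570 of all 16746.

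Markers of other cell types moved with genotype in part. The summed epithelium markers were at 34460 and 32380 normalized reads in Wnt1-Cre;pMes-Bmp4 and at 25750 and 19480 in wild-type. In limma 2 of 9 tested were higher, Krt18 and Krt14, and Krt5 was under the minimum. Log2 fold changes were positive for 7 of the 9, and Esrp1 and Grhl2 were at -0.12 and -0.06 with overlapping groups. The summed erythroid markers were at 340800 and 380800 in Wnt1-Cre;pMes-Bmp4 and at 673900 and 613100 in wild-type, with 2 of 6 lower, Hbb-y and Hba-x. Over all genes tested 2.97% were higher and 5.28% lower. At an unadjusted limma p under 0.05, 2246 of these 16746 genes were higher and 2570 lower. Neural tube, where Sall genes are also active, had 2 of 6 markers tested, with 0 called in limma and 1 higher at an unadjusted p under 0.05, and sums of 247.4 and 144.3 in Wnt1-Cre;pMes-Bmp4 and 146.1 and 55.54 in wild-type. Its tested markers Pax6 and Neurog2 had log2 fold changes of 1 and 2.14, Olig2 was at 0 in all 4 libraries, and Sox1, Sox3 and Nkx2-2 were under the minimum. Otic vesicle markers summed to 134.4 and 64.26 in Wnt1-Cre;pMes-Bmp4 and to 31.15 and 43.2 in wild-type, with 2 of 5 tested. The tested ones, Hmx2 and Hmx3, had log2 fold changes of 1.63 and 1.42, and Oc90, Pax2 and Pax8 were under the minimum. Of the otic markers 0 were called in limma and 0 had an unadjusted limma p under 0.05. Pharyngeal endoderm markers summed to 268.8 and 236.4 in Wnt1-Cre;pMes-Bmp4 and to 373.1 and 328.1 in wild-type. Of 3 tested 0 were called in limma and 2 were lower at an unadjusted limma p under 0.05. These 2 were Foxa1 and Foxa2, at log2 fold changes of -1.06 and -1.5, while Pax1 was at 0.14. Nkx2-1 and Shh were under the minimum. Cranial ganglion markers summed to 693.2 and 502 in Wnt1-Cre;pMes-Bmp4 and to 913.1 and 670.6 in wild-type, with 0 of 7 called in limma and 0 at an unadjusted p under 0.05. Endothelium markers summed to 4689 and 4920 in Wnt1-Cre;pMes-Bmp4 and to 3850 and 3772 in wild-type, with 0 of 7 called in limma and 3 higher at an unadjusted p under 0.05. Arch mesoderm markers summed to 1095 and 1092 in Wnt1-Cre;pMes-Bmp4 and to 720.2 and 1104 in wild-type, with 0 of 5 called in limma and 1 higher and 1 lower at an unadjusted p under 0.05. Heart markers summed to 578 and 447.4 in Wnt1-Cre;pMes-Bmp4 and to 409.4 and 432 in wild-type, with 0 of 5 called in limma and 0 at an unadjusted p under 0.05. The part of these cell types in the Sall values was not tested.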

How the data were processed

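RNA of 4 first arch libraries, 2 per genotype, was selected by its polyA tail, fragmented and copied from random hexamers, per the labels' protocols. Each deposited value is a gene's normalized signal, and the columns name featureCounts, per the file headers. The tool fastp 0.21.0 and the build mm10 appear in the submitters' processing notes. No source used here gives the aligner, the annotation or the strand setting. When every column was divided by its own lowest value above 0, 100% of values came out whole within 0.01, and these were taken as reads.

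Values were tested as log2(value + 1) with limma 3.58.1 (R 4.3.3, trended prior variance), over all 16746 genes averaging 10 or more, two-sided and with Benjamini-Hochberg adjustment over these genes. The threshold was 0.05. The fit had 2 residual and 5.26 prior degrees of freedom. With 2 against 2 libraries an exact permutation test cannot go below a p of 0.333. The recovered reads were also tested with edgeR 4.0.16, which called 409 genes higher and 915 lower, and with DESeq2 1.42.0. The length correction subtracted, per library, a spline with 4 degrees of freedom on the log2 length of the longest transcript (GENCODE, GRCm38), fitted to genes averaging 50 or more. A length was found for 96.9% of tested genes. Figures used matplotlib 3.10.9. The fits were also run on simulated counts given the same relative spread for every gene, which cannot show how they behave on these libraries.

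Members and lists were chosen with earlier results of these data known. The text names the members, tested neighbours within 1000 kb, genes of the pathway lists past the threshold (at most 6 a list, and where fewer than 2 passed the 2 of smallest p), and the 5 nearest patterns of each member. Mta1, Sox2, Pou5f1, Nanog, Tbx2, Tbx3 and the marker genes were named after their values were seen. A further pathway list is not reported here.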

Additional observations from a re-analysis of the deposited data

How the results depend on the processing

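The log2 fold changes of the 4 members were negative under all 14 alternatives. They ranged from -2.75 to -2.02 for Sall3, -1.23 to -0.79 for Sall2, -0.94 to -0.54 for Sall4 and -0.73 to -0.18 for Sall1. With 1 library left out the sign could not change, since both transgenic libraries lay below both wild-type libraries in all 4 members. The replicate blocks and the filters on low values do not alter these estimates. The length correction gave -2.02 for Sall3 and -0.79 for Sall2, and Sall2 was also at -0.79 without Wnt1-Cre;pMes-Bmp4 replicate 1. The log2 ratio of the family sum was -0.83 per kb of transcript. The counts of genes higher and lower stayed within 1.5 times with pseudocounts of 0.5 and 5, without the filter on low values, with a minimum mean of 50, with TMM scaling and in edgeR. The length correction gave 107 genes higher and 162 lower, with 0 of the Dpp list lower, 0 of NuRD higher or lower, 0 of the other C2H2 regulators lower, 1 of the pluripotency network lower and 0 of the neighbours lower. DESeq2 gave 1284 higher and 1582 lower, with 6 of the Dpp list lower, 4 of NuRD higher and 4 lower, 7 of the C2H2 list lower, and 1 of the neighbours higher and 3 lower. The replicate block gave 165 higher and 543 lower, with 1 of NuRD higher, 1 of the pluripotency network lower and 0 of the neighbours lower. The replicate numbers are not known to pair libraries, since replicate 1 minus replicate 2 correlated at -0.147 across genes between the genotypes. A replicate block with crossed numbers, an alternative added after seeing the data, raised the counts to 1763 higher and 1952 lower, with 7 of the Dpp list lower, 4 of NuRD higher and 5 lower, 1 of the C2H2 list higher and 7 lower, and 2 of the neighbours higher and 3 lower.

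Leaving out 1 library gave from 0 to 2675 genes higher and from 0 to 2719 lower, with the lone library of a group assumed to vary like the other group. Counts ranged from 0 to 1 higher and 0 to 10 lower in the Dpp list, 0 to 4 and 0 to 5 in NuRD, 0 to 3 and 0 to 9 in the C2H2 list, 0 to 1 and 0 to 6 in the pluripotency network, and 0 to 4 and 0 to 5 among the neighbours. With wild-type replicate 1 left out limma called 0 genes in either direction, where 1393 higher and 1792 lower had an unadjusted p under 0.05. With wild-type replicate 2 left out it called 1 higher and 0 lower, where 746 and 1060 did. The log2 fold change of Klf2, at -0.03 over all libraries, was 1.13 without Wnt1-Cre;pMes-Bmp4 replicate 2 and -1.19 without its replicate 1. Among the pathway list genes and neighbours, 12 single-gene calls were lost with the length correction and 3 with the replicate block. Lin28a alone of these genes passed after the length correction. Marker genes are not in these counts. The causes were not tested. Depth limits Sall3 most, with 32 and 43 reads in Wnt1-Cre;pMes-Bmp4.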
